A study of Mus musculus with 11 samples.

Results

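CpG-dense stretches of the mouse genome are mostly free of DNA methylation, and the tiles described here are the exception: 541 autosomal tiles of 1000 bp that held at least 20 measured C positions and were methylated at 60% or more in control blood progenitors. They were chosen by their level in the 5 control libraries, from 14602 CpG-dense autosomal tiles. Of the others, 268 had a control mean of 20% to under 60% and 13793 had one under 20%. A tile's level is the share of methylated reads among all reads of its C positions, with the strands counted apart, at positions covered by at least 10 reads in all 10 libraries used. The control levels of these tiles are therefore a description of the choice and not a result.

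The libraries came from bone marrow of C57BL/6 mice and were made by enhanced reduced representation bisulfite sequencing, which reads methylation at CpGs near MspI sites. Knockout (KO) mice were Dnmt3a f/f with the Mx1-Cre transgene, and control mice were Dnmt3a f/f without it; all received 5 injections of poly(I:C), the inducer of the Mx1 promoter, and the design gives an age of 12 months. The groups were 3 KO LSK and 3 control LSK libraries (Lin- Sca1+ cKit+ cells, which include the stem cells), and 2 KO GMP and 2 control GMP libraries (granulocyte-macrophage progenitors, Lin- Sca1- cKit+ CD34+ FcgR+). Mx1-Cre acts in cells that respond to interferon and need not recombine every cell, and nothing in the labels ties each library to its own animal. The p-values below therefore describe variation among libraries, which may be technical. A library with the number 352 carries labels that disagree on its genotype and enters no comparison.

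Summed coverage was 157.4 to 181.1 (in units of 1e6 reads, over C positions) in LSK and 95.4 to 109.7 in GMP, so GMP values carry more counting error. Within Dnmt3a, 5 C positions at chr12:3903653-3904031 (GRCm38) were listed in none of the KO LSK libraries, which is how that segment was found; 4 and 5 of them were listed in GMP KO libraries 178 and 179, and all 5 in every control library. Around the granule genes that mark GMP, control GMP levels were below control LSK levels at Mpo (47.3% ± 0.302, n = 2, against 88.8% ± 0.848, n = 3, SD) and Ctsg (52.1% ± 5.49 against 90.4% ± 0.989), although methylation is no measure of expression.

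DNMT3A is a de novo DNA methyltransferase, and together with the maintenance enzyme DNMT1 it sets and keeps CpG methylation; it is frequently mutated in clonal haematopoiesis and acute myeloid leukaemia. CpG islands at promoters are normally unmethylated. Methylated CpG-dense DNA is known chiefly from the bodies and ends of genes and from promoters of germline genes, which are silenced by methylation in the embryo and stay methylated in somatic cells.

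Whether sequence bears on the levels of these tiles was not tested. Promoter windows of members that hold an annotated gene start are printed here as examples. They are given for 3 members whose level fell in KO LSK and for 3 germline genes whose level stayed high, each as the window from 250 bases before to 50 bases after the start, 5′ to 3′ on the gene's strand, from RefSeq on GRCm38.p6, with CpGs in capitals. Alpk3 encodes an alpha-kinase of heart muscle (chr7:81057350-81057649, + strand, 15 CpGs). Crb2 encodes a Crumbs polarity protein (chr2:37775999-37776298, + strand, 15 CpGs). Gm35510 is a predicted gene (chr4:119073019-119073318, + strand, 19 CpGs). Ddx4 encodes the germ-cell RNA helicase VASA (chr13:112652261-112652560, - strand, 38 CpGs). Hormad1 encodes a meiotic chromosome axis protein (chr3:95559427-95559726, + strand, 24 CpGs). Mael encodes a protein of the piRNA pathway (chr1:166238695-166238994, - strand, 24 CpGs).
Alpk3: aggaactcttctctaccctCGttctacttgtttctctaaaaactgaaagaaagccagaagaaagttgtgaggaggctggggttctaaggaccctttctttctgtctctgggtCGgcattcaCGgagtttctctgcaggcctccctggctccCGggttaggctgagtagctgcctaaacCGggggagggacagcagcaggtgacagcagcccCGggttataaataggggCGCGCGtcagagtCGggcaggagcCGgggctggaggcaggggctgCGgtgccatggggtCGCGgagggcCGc
Crb2: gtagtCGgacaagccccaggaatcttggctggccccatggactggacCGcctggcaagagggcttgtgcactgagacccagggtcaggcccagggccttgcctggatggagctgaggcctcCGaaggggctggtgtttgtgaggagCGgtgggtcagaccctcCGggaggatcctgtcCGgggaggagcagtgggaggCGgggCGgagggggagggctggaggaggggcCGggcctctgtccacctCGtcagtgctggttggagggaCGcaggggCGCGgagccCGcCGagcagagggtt
Gm35510: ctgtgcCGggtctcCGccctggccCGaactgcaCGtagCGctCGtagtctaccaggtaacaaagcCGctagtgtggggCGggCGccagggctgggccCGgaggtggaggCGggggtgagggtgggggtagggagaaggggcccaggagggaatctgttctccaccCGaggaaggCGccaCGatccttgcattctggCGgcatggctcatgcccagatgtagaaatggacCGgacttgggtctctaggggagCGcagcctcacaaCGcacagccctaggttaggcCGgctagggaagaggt
Ddx4: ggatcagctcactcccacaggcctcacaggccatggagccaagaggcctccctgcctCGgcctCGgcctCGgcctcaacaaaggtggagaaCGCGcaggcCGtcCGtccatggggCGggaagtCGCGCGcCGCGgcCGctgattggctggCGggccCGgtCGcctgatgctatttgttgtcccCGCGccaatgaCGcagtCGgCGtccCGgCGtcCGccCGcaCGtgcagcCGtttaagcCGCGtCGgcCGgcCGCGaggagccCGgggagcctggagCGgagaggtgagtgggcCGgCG
Hormad1: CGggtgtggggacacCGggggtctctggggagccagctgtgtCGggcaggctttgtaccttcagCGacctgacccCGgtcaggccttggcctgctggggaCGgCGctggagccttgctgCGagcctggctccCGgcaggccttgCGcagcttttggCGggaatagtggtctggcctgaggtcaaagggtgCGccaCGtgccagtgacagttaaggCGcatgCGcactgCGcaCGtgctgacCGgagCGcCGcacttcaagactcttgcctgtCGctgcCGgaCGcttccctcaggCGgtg
Mael: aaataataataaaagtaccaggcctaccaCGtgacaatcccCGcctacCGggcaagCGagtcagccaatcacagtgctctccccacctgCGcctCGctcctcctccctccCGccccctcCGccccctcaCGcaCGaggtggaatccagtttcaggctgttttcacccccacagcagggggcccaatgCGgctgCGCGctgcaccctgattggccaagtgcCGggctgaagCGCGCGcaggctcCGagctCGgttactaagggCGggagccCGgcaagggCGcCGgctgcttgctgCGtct

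Over the Alpk3 window the level was 45.8%, 34.2% and 31.7% in the KO LSK libraries, against 85.3%, 80.2% and 69.7% in the control LSK libraries. Over the Crb2 window it was 57.1%, 43.1% and 46.9% in KO LSK, against 73.7%, 74.9% and 70.6% in control LSK. Over the Gm35510 window it was 60.05%, 53.1% and 51.2% in KO LSK, against 79.2%, 81.7% and 82.5% in control LSK. The genotypes did not overlap in any of these windows. The Ddx4 window had 87.6%, 90.4% and 89.2% in KO LSK, against 90.7%, 90.7% and 92.0% in control LSK, so the means were 89.1% ± 1.37 in KO LSK and 91.1% ± 0.743 in control LSK (SD, n = 3 each). Hormad1 had 93.5%, 94.9% and 92.4% in KO LSK, against 94.6%, 94.0% and 94.3% in control LSK, with overlapping groups. Mael had 84.9%, 83.8% and 86.0% in KO LSK, against 88.0%, 89.95% and 87.1% in control LSK. At Ddx4 and Mael the highest KO LSK library lay just below the lowest control LSK library.

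Most members lie inside or at the end of genes. Gene bodies held 332 (61.4%), 142 (26.2%) lay within 1 kb of or over a gene's end, 31 (5.73%) held an annotated gene start and 36 (6.65%) were intergenic. In all, 501 overlapped a gene, and for 480 that was a protein-coding gene. They were found on all 19 autosomes, with 72 on chromosome 7, 49 on chromosome 11 and 4 on chromosome 16, and 26 pairs were adjacent tiles. The genes with the most members were Agap2, Bsn, Lmtk3, Nacad, Prdm16, Shank3 and Zfp865, with 3 members each, and 0 of those were called in KO LSK. Since 4.81% of all members and 0.991% of all tiles were called lower there, this 0 says little about these genes.

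The control mean had a median of 93.9% and a highest value of 97.4%. There were 43 members at 60% to under 70%, 37 at 70% to under 80%, 100 at 80% to under 90% and 361 at 90% or more. Just inside the limit lay tiles at Elfn1 (60.05%), St8sia1 (60.2%) and Gm38708 (60.6%), and just outside it tiles at Pi16 (59.8%), Hoxa3 (59.6%) and Pear1 (59.4%). A member held a median of 24 C positions and at most 91, the latter at the end of Zfpm1. Of 15005 C positions in members, 84.7% were at 80% or more and 118 were under 20% in the controls. Median coverage was 85.5 reads per position, but 2 intergenic members on chromosome 2 stood at 45570 and 3949 reads and one in Sfi1 at 2042. Why these 3 tiles are covered so deeply was not tested, and their levels are uncertain.

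The average level of these tiles was a few points lower in KO than in control libraries. KO LSK libraries averaged 86.9%, 85.6% and 85.7% over the 541 tiles, against 89.5%, 89.5% and 89.4% in control LSK, a difference of -3.37 points. KO GMP libraries averaged 87.2% and 87.7%, against 89.7% and 89.9% in control GMP, a difference of -2.31 points. With members limited to 80% or more the differences were -2.39 points in LSK and -1.39 points in GMP. Every KO library lay below every control library of its cell type. An exact two-sided permutation test within each cell type cannot go below p = 0.1 in LSK or p = 0.333 in GMP, and gave those values. With both cell types together, permuting genotype within cell type, the difference was -2.84 points with exact p = 0.0167, the smallest the 120 arrangements allow. Since control levels chose the tiles, the comparison was repeated with members chosen by the controls of the other cell type, and the differences were -3.61 points in LSK, -2.12 in GMP and -2.87 in both (exact p = 0.0167).

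That average hides a small group of large losses. In KO LSK, 26 of 541 members (4.81%) were called lower and 0 higher, where a call needs an adjusted p under 0.05 over all 100150 tiles tested and a difference of at least 20 points in pooled level. Over all tiles tested, 0.991% were called lower and 0.00399% higher. The choice of tiles by high control levels left little room for a gain of 20 points. The control mean was 80% to under 90% in 100 members and 90% or more in 361. In 211 it was over 95%, which limits even gains of 5 points. The counts of higher tiles are therefore limited by the choice. The tests were quasi-binomial logistic fits with limma's moderated dispersion. With members chosen by the controls of GMP alone, 30 were called lower; 25 of the 26 pass that choice, the exception being Crb2, whose control GMP level is just under 60%. Without the 20-point condition 58 members passed lower and 0 higher, against 2.89% and 0.032% of all tiles. At an unadjusted p under 0.05, in either direction, there were 126, against 12.2% of all tiles. The median member differed by -0.84 points and the median tile tested by -0.36 points. In 100 members the pooled level was lower by 5 points or more, and in 2 it was higher by as much, at Map1b and beside LOC115487525; neither passed, and both are named after their values were seen. All KO LSK libraries lay below all control LSK libraries in 152 members (28.1%), where 15.3% of all tiles did, and above them in 13, where 3.33% of all tiles did.

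**Figure D1:**
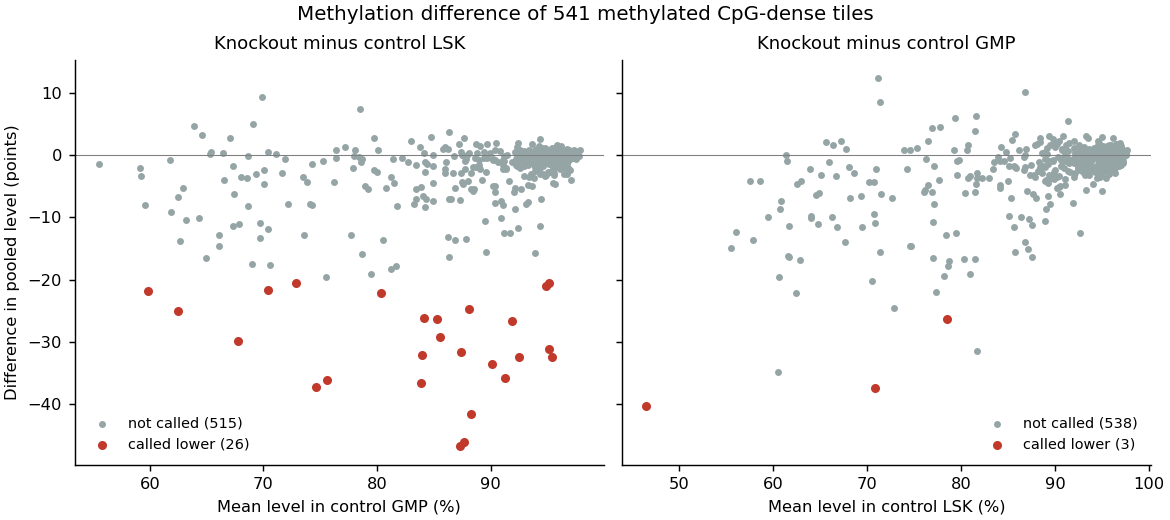
Difference in pooled methylation level (points) of each of the 541 tiles in KO minus control LSK (left) and KO minus control GMP (right), plotted against the mean level (%) in the control libraries of the other cell type. The 26 tiles called lower in KO LSK and the 3 in KO GMP are red; most tiles above 95% sit near 0.

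Each of the 26 had non-overlapping libraries in LSK, and their control mean lay between 61.4% and 93.7%. Of these, 12 lie in gene bodies, with 8 at gene ends, 5 at gene starts and 1 intergenic. Their mean over tiles was 46.1% in KO LSK against 76.5% in control LSK. In 29 windows of 5 Mb, the positions listed in all libraries of 1 genotype and none of the other came to at least 1% of the positions common to all libraries, and 3 of the 26 (AI661453, Mn1 and Gm40602) lie in such windows; the other 23 lie outside them.

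The largest loss was inside Neurl1b, which encodes a ubiquitin ligase that acts on Notch ligands (chr17:26439001-26440000, 37 C positions). Its level was 23.2%, 29.1% and 19.6% in KO LSK, against 65.4%, 73.0% and 74.1% in control LSK. The pooled difference was -46.7 points (adjusted p = 3.21e-05). Inside Runx3, a Runt-family transcription factor of T and NK cells (chr4:135175001-135176000, 33 C positions), it was 36.6%, 32.3% and 29.8% in KO LSK, against 79.7%, 78.3% and 78.1% in control LSK. Runx3 differed by -46.0 points (adjusted p = 4.65e-06). At both tiles every KO LSK library lay far below every control LSK library.

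Other large losses lay at a kinase gene and in a channel gene. The tile at the end of Rps6ka4, which encodes the kinase MSK2, had 49.3%, 37.0% and 33.7% in KO LSK, against 78.3%, 85.7% and 81.1% in control LSK (-41.6 points, adjusted p = 6.63e-05). The tile inside Kcnn4, which encodes a calcium-activated potassium channel, had 13.6%, 10.8% and 6.42% in KO LSK, against 51.7%, 44.4% and 43.3% in control LSK (-36.5 points, adjusted p = 1.99e-05). Kcnn4 had the lowest KO LSK level of the 26 tiles, and its control LSK level was itself under 60%, since its control GMP level carried it past the limit.

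Nfix, Casz1 and Mn1 are also among the 12 largest. Inside Nfix, a nuclear factor I protein that acts in stem cells, levels were 31.9%, 19.08% and 18.02% in KO LSK, against 55.9%, 66.0% and 59.6% in control LSK (-37.2 points, adjusted p = 0.000293). The tile inside Casz1, which encodes a zinc finger protein and which also holds the start of the lncRNA Gm13205, had 67.7%, 49.6% and 47.4% in KO LSK, against 88.6%, 85.2% and 88.9% in control LSK (-32.5 points, adjusted p = 0.00037). Mn1, a transcriptional coactivator gene fused in leukaemia, had 53.9%, 47.2% and 47.0% in KO LSK, against 80.4%, 84.3% and 78.2% in control LSK (-31.6 points, adjusted p = 2.6e-05). Each kept its genotypes apart, and KO LSK library 1327 was the highest of the KO libraries at all 3.

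The tile at the start of Alpk3 had 47.4%, 44.4% and 38.5% in KO LSK, against 82.0%, 79.5% and 74.0% in control LSK (-35.8 points, adjusted p = 3.21e-05). A tile inside Ltbp3, which encodes a latent TGF-beta binding protein, had 57.2%, 54.0% and 50.3% in KO LSK, against 85.8%, 87.9% and 87.6% in control LSK (-33.5 points, adjusted p = 1.33e-05). A second Ltbp3 tile was called as well, at -29.8 points. AI661453 (-36.2 points), H13, which encodes signal peptide peptidase (-32.4 points), and Sh2d3c, which encodes an adaptor protein (-32.1 points), complete the 12 largest. H13 was the most uneven of them, with 68.2%, 44.0% and 45.2% in KO LSK, against 88.3%, 88.5% and 83.5% in control LSK. The remaining calls lay in or near Hlx, Mex3a, Trim47, Gm35510, Cacnb1, Gm40602, Ssbp4, Samd14, Crb2, Fkbp6, Rasal3, Cercam and Caskin2, with differences of -31.1 to -20.5 points.

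**Figure D2:**
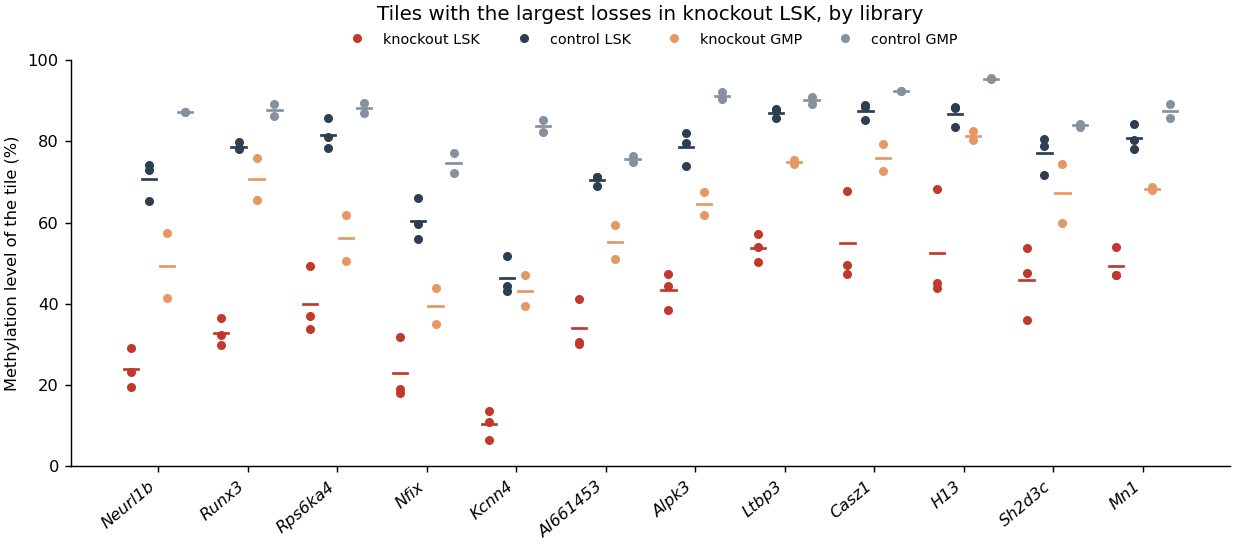
Methylation level (%) of the 12 tiles with the largest losses in KO LSK, one point per library and a bar at each group's mean, with KO left of control in LSK (3 libraries each) and in GMP (2 each). KO libraries lie below control libraries at every tile in both cell types, and KO LSK lies below KO GMP by group mean.

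Within most of these tiles the lower levels ran along the measured length. Of 933 C positions in the 26 tiles, 97.9% had a lower mean in KO LSK than in control LSK, and at 78.5% no library overlapped. Over all members the shares were 57.8% and 12.5%, the 26 included; the calls were made on these same reads, so this describes them. In Runx3, 33 of 33 positions were lower in KO LSK, by 4.54 to 71.8 points, and in Kcnn4 46 of 46. In Neurl1b it was 36 of 37. Caskin2 was uneven, with 25 of 31 positions lower, a median of -5.37 points and a largest difference of -67.0 points. In the uncalled Ddx4 tile, 39 of 58 positions were lower, with a median of -1.66 points.

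**Figure D3:**
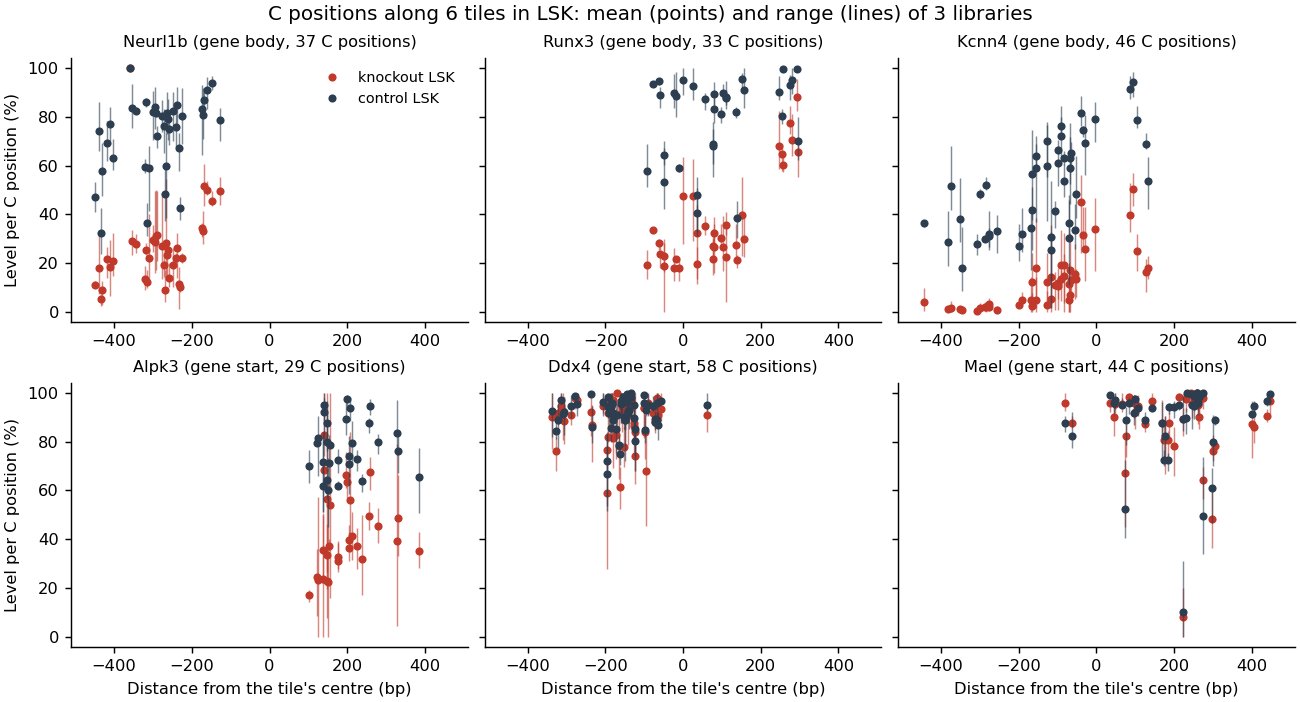
Level (%) of each C position against its distance (bp) from the tile's centre in LSK for Neurl1b, Runx3, Kcnn4, Alpk3, Ddx4 and Mael, as the mean of 3 libraries (points) and their range (lines). KO points lie below control points along the first 4 tiles and among them in Ddx4 and Mael.

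The difference varied with how methylated a tile was. Binned by the level in control GMP, so that LSK values do not set the bin, the mean difference in KO LSK was -6.84 points at 60% to under 70% (33 tiles), -7.31 at 70% to under 80% (40 tiles) and -7.03 at 80% to under 90% (94 tiles). It was -2.44 points at 90% to under 95% (180 tiles) and -0.89 points at 95% or more (189 tiles). In every bin all KO LSK means lay below all control LSK means. Of these bins the numbers called were 2, 4, 11, 5 and 3, and 5 tiles under 60% in control GMP, too few for a trend, differed by -7.67 points with 1 call. KO GMP, binned by the level in control LSK, differed by -8.17, -7.49, -3.60, -0.96 and -0.29 points over the same 5 ranges. In 7 tiles under 60% in control LSK it differed by -14.3 points. Tiles under 60% in the controls of 1 cell type are members only through the controls of the other. Their differences of -7.67 and -14.3 points therefore draw on values that chose them and are a description. By number of C positions, the mean difference in KO LSK was -2.21 points at 20 to 24 (3 of 281 called) and -4.06 at 25 to 29 (7 of 123). It was -3.97 points at 30 to 39 (7 of 80) and -6.77 at 40 to 91 (9 of 57). The medians were -0.63, -1.18, -0.57 and -1.41 points, without a steady order. Tiles with more positions hold more reads, which also bears on the calls. Tiles with 40 or more positions had a control LSK mean of 86.4%, against 90.04% at 20 to 24. The part of the control level in these differences was not tested.

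The members were next set against CpG-sparse tiles of the same methylated range, 62681 tiles with 3 to 19 positions. The members lost more, by 1.29 points over both cell types (exact p = 0.0167, the smallest possible), by 0.665 points with both kinds of tile limited to 80% or more (exact p = 0.0333), and by 1.35 points when chosen by the other cell type's controls (exact p = 0.0167). Called lower in KO LSK were 26 of 541 members (4.81%) and 559 of the sparse tiles (0.892%); tiles with more positions hold more reads, so these shares also differ in the precision of a call. At equal control GMP level the members' difference in KO LSK was the larger in all 5 bins, for example -7.03 against -3.02 points at 80% to under 90%. In GMP this held below 90%, with -3.60 against -2.36 points at 80% to under 90%, while above 95% the members differed by -0.29 and the sparse tiles by -0.52 points. Against the partly methylated CpG-dense tiles the members lost less, by 2.86 points (exact p = 0.0167), but with the other cell type's controls as the choice this was 2.36 points with exact p = 0.05. Of those 268 tiles, 17 (6.34%) were called lower in KO LSK.

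**Figure D4:**
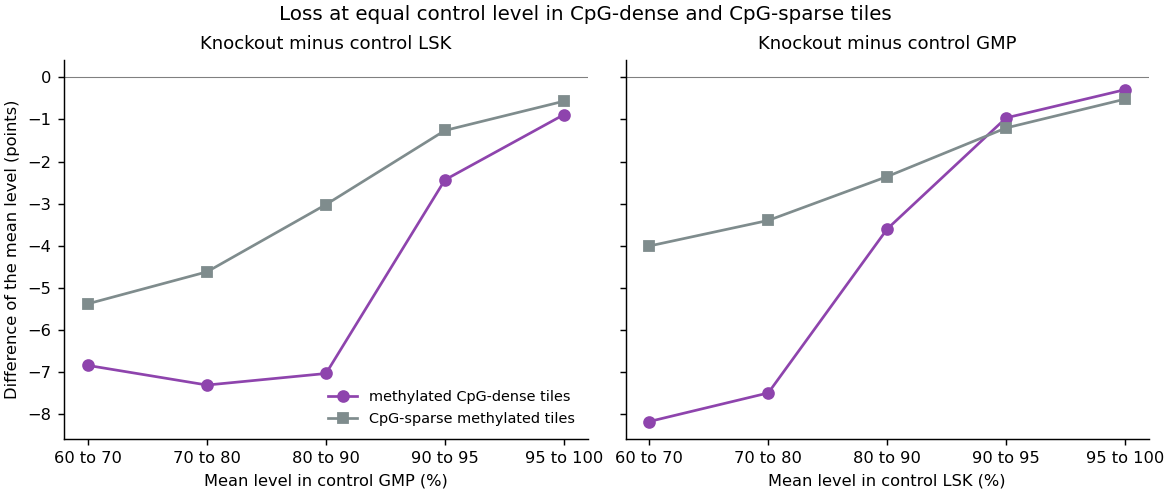
Difference of the mean level (points) in KO minus control LSK (left) and KO minus control GMP (right) for methylated CpG-dense tiles (circles) and CpG-sparse methylated tiles (squares), in 5 ranges of the mean level (%) in the control libraries of the other cell type. The dense tiles lie lower in all ranges in LSK and in the 3 lowest ranges in GMP.

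The changes in KO GMP were smaller by value and fewer passed. KO GMP libraries 178 and 179 listed 4 and 5 of the 5 Dnmt3a positions that no KO LSK library listed. The part of this in the smaller changes was not tested. Called lower in KO GMP were 3 members and higher 0, with 0.0589% and 0.00899% of all tiles called; 64 members had an unadjusted p under 0.05 in either direction, against 6.45% of all tiles. Without the 20-point condition 4 members passed lower and 0 higher, against 0.0629% and 0.00999% of all tiles. As in LSK, the high control levels left little room for higher calls. The 3 were Kcnn4, Neurl1b and Alpk3, all also called in KO LSK. Kcnn4 had 39.4% and 47.0% in KO GMP, against 82.4% and 85.4% in control GMP (-40.3 points); it is a member only through its control GMP level, so this difference draws on values that chose it and is a description. The other 2 are members by their control LSK level alone. Neurl1b had 41.4% and 57.3% in KO GMP, against 87.4% and 87.3% in control GMP (-37.3 points, adjusted p = 0.0189). Alpk3 had 61.7% and 67.6% in KO GMP, against 92.1% and 90.5% in control GMP (-26.3 points, adjusted p = 0.0305). The groups are far apart at all 3. With 2 libraries a group the calls are fragile: leaving out GMP KO library 178, or GMP control library 346 or 349, left 0 calls, leaving out GMP KO library 179 left 1, and leaving out LSK KO library 1327, 1333 or 1334 gave 7, 5 and 5.

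All 26 tiles called in KO LSK were lower in KO GMP, and in all 26 both KO GMP libraries lay below both control GMP libraries, where 25.9% of all tiles did so. Over all members this was so in 188, and the reverse in 52, where 11.2% of all tiles showed it. Their median difference was -16.9 points in GMP and -30.5 points in LSK, and it was the smaller in GMP at 25 of 26. The exception was Kcnn4, whose high control GMP level made it a member. Being chosen for a large difference in LSK favours the larger value there. The difference between the cell types was itself tested as an interaction, and 0 members passed, as did 0 of all 100150 tiles (0%); 26 members (4.81%) had an unadjusted p under 0.05, close to the 4.34% of all tiles. The smallest unadjusted p was at the end of Thap3 (p = 0.00096, adjusted p = 0.728, quasi-binomial fit). Its levels were 72.6%, 68.6% and 61.1% in KO LSK, against 85.7%, 84.7% and 87.9% in control LSK. They were 82.2% and 82.1% in KO GMP, against 79.5% and 83.1% in control GMP. The Thap3 tile lies in a window of the kind described above, chr4:150000001-155000000, as do the Prdm16 members. There, 148 positions were listed only in control among LSK libraries, and 194 only in KO among GMP libraries. The genotype with the extra positions is thus opposite between the cell types. The part of this in the Thap3 values was not tested. Across the 541 tiles the LSK and GMP differences had a Pearson r of 0.77 and a Spearman rho of 0.42, and without the 26 called tiles 0.46 and 0.33, as a description of tiles that share their libraries.

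**Figure D5:**
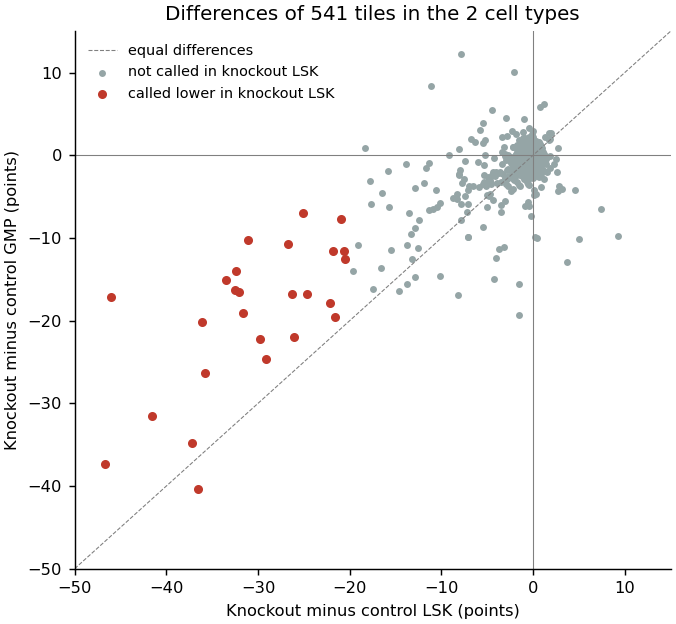
Difference in pooled level (points) of each of the 541 tiles in KO minus control GMP against KO minus control LSK, with the line of equal differences dashed. All 26 tiles called lower in KO LSK (red) are below 0 in both cell types, and 25 lie above the line.

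Libraries of 1 group were not alike at these tiles. KO LSK library 1327 was the highest KO LSK library at 23 of the 26 called tiles and at 257 of all 541. KO GMP library 179 was above library 178 at 23 of the 26 and at 306 of 541. In LSK, KO library 1327 and control library 1326 listed 1422 and 1470 C positions on chromosome Y, the other 4 libraries 211 to 229 and the GMP libraries 1226 to 1326; the part of this in the differences between libraries and cell types was not tested. Over the 541 tiles library 1327 averaged 86.9% and library 1326 89.5%, and the other LSK libraries 85.6% and 85.7% in KO and 89.5% and 89.4% in control. Without library 1327, 32 members were called in KO LSK, all 26 among them; without library 1333 or 1334, 23 and 24 were called, 23 of the 26 in each case.

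The cell types differed little in these tiles' level overall. Averaged over both genotypes GMP lay 0.84 points above LSK, with exact p = 0.05, which does not pass; the smallest p possible is 0.01. The difference kept its sign without single libraries, but its p changed. Without GMP KO library 178 or 179, which leaves 1 library in that group, the difference was 0.97 and 0.70 points. Without LSK KO library 1327, 1333 or 1334 it was 1.05, 0.72 and 0.74 points. The exact p was then 0.0167 each, the smallest that the fewer arrangements allow. With members limited to 80% or more it was 0.509 points (exact p = 0.17). In controls, GMP was called lower than LSK at 2 members and higher at 1, against 0.801% and 0.0859% of all tiles. These control values chose the tiles, so the counts and the tiles named are a description, and Kcnn4 and Zbtb12 are members only through the cell type in which they are high. Without the 20-point condition there were 5 lower and 3 higher, against 1.05% and 0.168% of all tiles. All control GMP libraries lay below all control LSK libraries at 101 members and above them at 103, against 18.3% and 13.9% of all tiles. The higher one was Kcnn4, with 82.4% and 85.4% in control GMP, against 51.7%, 44.4% and 43.3% in control LSK (37.3 points). The lower ones were the end of Zbtb12, a BTB zinc finger gene, with 50.1% and 60.9% in control GMP, against 77.8%, 75.5% and 81.4% in control LSK (-21.6 points), and an intergenic tile nearest Gm8888 (-20.3 points). Without GMP control library 349 or LSK control library 1331 neither lower tile met both conditions, and without GMP control library 346 the Gm8888 tile alone did, while 2 were then called higher.

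In KO cells GMP was called lower than LSK at 1 member and higher at 10, against 0.658% and 0.222% of all tiles. Without the 20-point condition there were 3 lower and 14 higher, against 0.87% and 0.395% of all tiles. Both KO GMP libraries lay below all KO LSK libraries at 76 members and above them at 113, against 15.9% and 12.1% of all tiles. The lower one was again Zbtb12, with 40.6% and 35.2% in KO GMP, against 75.2%, 80.6% and 73.1% in KO LSK (-39.5 points). Zbtb12 and Kcnn4 are members only through the cell type in which their controls are high. Their differences here run in that direction and are a description. The 10 higher ones were in Runx3, Kcnn4, Hlx, H13, Neurl1b, Alpk3, AI661453, Ltbp3, Hoxb3 and Rnf220, and all but those in Hoxb3 and Rnf220 were also called lower in KO LSK; both comparisons use the KO LSK libraries. The largest was Runx3, with 65.6% and 76.0% in KO GMP, against 36.6%, 32.3% and 29.8% in KO LSK (37.9 points, adjusted p = 6.13e-05), while its controls had 86.1% and 89.3% in GMP, against 79.7%, 78.3% and 78.1% in LSK. Kcnn4 (33.4 points), Hlx (28.9 points), H13 (27.0 points) and Neurl1b (26.1 points) followed. The count is unsteady: it was 19 without LSK KO library 1327, 4 without 1334, 6 without GMP KO library 178 and 3 without 179.

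The members were also grouped by gene lists. Of 51 germline genes on the list, 10 had a member, and 0 of 10 were called in either cell type. With 4.81% of all members and 0.991% of all tiles called lower in KO LSK, a count of 0 among so few tells little. The 0 holds for this list alone: the called Fkbp6 tile and the uncalled Boll, Meioc, Sycp2 and Hsf5 tiles lie outside it. The differences of the 10 in KO LSK had a median of -0.31 points, against -0.84 for all members. They lay between -5.93 points at Stag3, a meiotic cohesin gene, and 1.78 points at Sycp3, a synaptonemal complex gene. Ddx4 had 89.3% ± 1.29 in KO LSK and 91.5% ± 0.424 in control LSK (SD, n = 3 each). Spo11, which encodes the enzyme that makes meiotic DNA breaks, had 95.9% ± 2.46 in KO LSK and 95.8% ± 0.70 in control LSK. In Sohlh2, a germ-cell transcription factor gene, the levels were 94.8% ± 1.79 in KO LSK and 95.2% ± 0.82 in control LSK. Mael, Hormad1, Slc25a31, Dmrtb1 and Zfp42 had differences of -0.74 to 0.90 points. None of the 10 passed an adjusted p of 0.05; the lowest was 0.0723 at Stag3, and such a miss does not show that the levels were equal.

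The other lists are as small, and the same shares apply to their counts. Lymphoid genes had 4 members, of which Runx3 was called and Tcf3 (0.28 points), Bcl11a (-0.41 points) and Bcl11b (-0.17 points) were not. The stem-cell and self-renewal list had 5, of which Nfix was called, while 3 tiles of Prdm16 and 1 of Zfpm1 differed by -5.02 to 0.73 points. Of 2 members in genes of RAS and cytokine signalling, Rasal3, a RAS GTPase-activating protein gene of blood cells, was called at -21.0 points, and Sh2b3 differed by -1.25 points. H13 was the 1 member of an imprinted gene. Hox genes had 3: both Hoxb3 tiles had an adjusted p under 0.05 in KO LSK without reaching 20 points (-15.5 points, adjusted p = 0.00338, and -15.8 points, adjusted p = 0.0326), and a tile at Hoxa3 differed by -5.44 points. Of 8 members in neural genes and 3 in chromatin regulators, 0 were called. The lists of myeloid, methylation machinery, adhesion, developmental transcription factor and stromal genes had 0 members, and Zfpm1 is also the 1 member of the erythroid list.

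Sequence features of the gene starts were described as well. In 31 members lie 35 RefSeq promoter windows, with a median of 19 CpGs, against 7 over all 32851 windows. The E-box CACGTG was in 22.9% of them, against 7.15% of all windows, and GGCGGGA (either strand), the core of E2F6-type sites, was in 31.4%, against 11.3%. No matches of the 2 motifs overlapped. Both motifs hold a CpG, and the members were chosen as CpG-dense tiles. Shares at equal CpG number were not taken, so the comparison with all windows cannot set the motifs apart from CpG density. In windows of members of the germline list the counts were 6 of 8 (75%) and 5 of 8 (62.5%), with 2 of the 8 being near-identical windows of Hormad1. The windows of Boll, Meioc, Sycp2 and Hsf5, outside the list, hold no CACGTG, and of these only Boll and Hsf5 hold GGCGGGA. In the 5 windows of called members the counts of the 2 motifs were 0 and 0. Ddx4, Hormad1 and Mael, printed above, hold both motifs, while Alpk3, Crb2 and Gm35510 hold neither. Of the other windows of the germline list, those of Sohlh2 and Dmrtb1 hold neither, and their tiles differed by -0.37 and 0.90 points in KO LSK. The Slc25a31 window holds both and the Sycp3 window CACGTG alone. Over the 30 windows in members not called, 26.7% held CACGTG and 36.7% GGCGGGA. Any link of the motifs to the level was not tested. A match is a run of letters and not a measured site.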

How the data were processed

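Per the file headers, each row of the deposited tables gives a C position, its coverage (a read count) and what percent of those reads showed C or T. Bismark, mm10 and GRCm38 are named, per the submitters' processing notes; versions and conversion checks are not given in the sources used here. DNA was cut with MspI, and fragments of 150 to 400 bp were read singly over 50 bp, per the labels' protocols. Listed positions had at least 10 reads; others are unlisted, not 0.

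Methylated reads were recovered as coverage times percent, which gave whole reads at every listed position, and summed over fixed tiles of 1000 bp. All 100150 tiles with at least 3 positions in all 10 libraries (chromosome M left out) were fitted with a quasi-binomial logistic model with 4 group means; dispersions were moderated with limma 3.58.1 in R 4.3.3 (prior df 7.71, residual df 6, floor 1) and p-values adjusted by Benjamini-Hochberg. Scripts used Python 3.11.15, numpy 2.4.6 and scipy 1.17.1 and were tested on simulated data. Means over tiles were compared with exact two-sided permutation tests over libraries. A fit with 10 libraries and 4 groups gives limited precision, and PCR duplicates cannot be told apart without molecular identifiers, so read counts overstate independent molecules.

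Named tiles are the 12 largest called losses per cell type, up to 5 each way between cell types, the 5 smallest interaction p-values, genes of 14 lists, genes with most members and the neighbours of the 60% limit; all called tiles are listed. The members and lists were chosen with earlier results of these data known. Promoter windows and gene positions are from RefSeq on GRCm38.p6; all 249808 listed positions inside promoter windows fell on a CG there. Library 352 was left out of all comparisons.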

Additional observations from a re-analysis of the deposited data

How the results depend on the processing

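The sign of every mean difference held under the alternatives run, and no named tile that was rerun was reversed. The tiles rerun were mainly those with the largest called differences or the smallest interaction p-values. At other named tiles with values near 0 the sign can depend on the measure. Spo11 differed by -0.26 points in pooled level, but its library means were 95.9% in KO LSK and 95.8% in control LSK. No paired analysis was possible because the compared groups share no library numbers. Calls on the 20-point limit and on the moderated dispersion were the least steady. Tiles called lower in KO LSK (26) numbered 49 with a difference of 10 points, 14 with members at 80% or more and 14 with no moderation, and 23 to 32 when each library was left out in turn. Tiles called lower in KO GMP (3) numbered 5 at a coverage minimum of 20, 0 with limma on log ratios, 1 with members at 80% or more, 0 with no moderation, 9 with only the groups compared, 5 with the prior from all tiles and 0 to 7 on leaving out a library. Tiles higher in KO GMP than KO LSK (10) numbered 5 with limma on log ratios, 5 with members at 80% or more, 2 with no moderation, 6 with only CpG-dense tiles tested, 5 with only the groups compared and 3 to 19 on leaving out a library. Tiles lower there (1) numbered 0 at a coverage minimum of 20, 3 with 10 points and 0 with members at 80% or more. Between controls, tiles higher in GMP (1) numbered 3 with 10 points, 0 with the grid shifted by 500 bp, 0 with members at 80% or more, 0 with no moderation and 1 to 2 on leaving out a library. Tiles lower in GMP controls (2) numbered 1 at a coverage minimum of 20, 5 with 10 points, 0 with members at 80% or more, 1 with no moderation, 1 with only CpG-dense tiles tested and 0 to 2 on leaving out a library. The GMP minus LSK mean was 0.844 points with unweighted positions (exact p = 0.04) 0.509 points with members at 80% or more (exact p = 0.17) and 0.700 to 1.05 points on leaving out a library. With members at 80% or more, the loss against CpG-sparse tiles was -0.665 points (exact p = 0.0333) and the KO GMP mean difference -1.39 points. The gap to partly methylated tiles was 2.36 points (exact p = 0.05) with members chosen by the other cell type's controls. A coverage minimum of 20 left 348 members. The cause of these shifts was not tested. GMP libraries were shallower, and 2 libraries a group limit what their tests can call.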

Other observations

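The library numbered 352, whose title and genotype label disagree, had a mean level of 85.4% over the 541 tiles, with 26 tiles under 50%. Its level was 29.8% in the Neurl1b tile, 38.2% in Runx3, 9.47% in Kcnn4 and 44.9% in Alpk3. Over the 26 tiles called lower in KO LSK its mean was 45.9%. Of the 5 Dnmt3a positions unlisted in KO LSK, it listed 0.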
